A study of Mus musculus with 3 samples.

Results

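A stretch of chromosome 19 from 29 to 30 Mb, in which accessible sites are dense and carry high scores, was described in MEL cells, a mouse erythroleukemia line. Its members are all DNase-seq peaks centred there on mm10: 350 of the 281600 peaks of biological replicate 1 and 141 of the 89046 peaks of biological replicate 2. The stretch was chosen by these same peak scores, so its high scores are the criterion and not a result, and no test was made on them. The 3 Mb before it and the 3 Mb after it, together the flanks, served for comparison and held 601 and 208 peaks.

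All libraries came from untreated cells as far as the labels tell, since no treatment, age or time is named, and 1 cell line was used throughout. Biological replicate 1 pooled 2 libraries, technical numbers 1 and 3, into 1 peak list, and biological replicate 2 gave 1 list from 1 library. Nothing in the labels says whether the replicates were separate cultures. The read depth is unknown, and the median score of the whole list was 73 in replicate 1 and 32 in replicate 2, so scores are compared within a list only. The labelled cell type was checked at promoters: all 10 red cell lineage markers had a promoter peak in replicate 1 and 9 in replicate 2, while T cell markers had 2 and 0 of 5, B cell markers 1 and 0 of 5, hepatocyte and neuron markers 2 and 1 of 5 each, and pluripotency markers 0 in both lists. Over all protein-coding genes the share with a promoter peak was 58% in replicate 1 and 49.3% in replicate 2.

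DNase I cuts DNA where chromatin is open, so cut sites gather at promoters, enhancers and sites of the architectural protein CTCF. The stretch holds Jak2, the kinase through which the erythropoietin receptor signals in red cell precursors, and farther on Cd274 and Pdcd1lg2, which encode the ligands PD-L1 and PD-L2 of the checkpoint receptor PD-1. It also holds Il33, the gene of an alarmin cytokine, and Mlana, a melanocyte gene. The score of a peak is a whole number from 1 to 150 given by the authors, and a peak is 150 bp wide. What the score counts is not given in the sources used here.

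The sequences of 5 member peaks are shown, read on the plus strand from the GRCm38 reference, the same build as mm10. The first 3 are the peaks with the highest replicate 2 scores of the stretch, and the last 2 hold the CTCF consensus with a high and a lower score. Capitals mark matches to the searched motifs, on either strand: here TGANTCA for AP-1, GAGGAAG for PU.1, the letters AGATAA for factors of the GATA family, and the consensus of CTCF.

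Jak2 upstream site chr19:29241676-29241825: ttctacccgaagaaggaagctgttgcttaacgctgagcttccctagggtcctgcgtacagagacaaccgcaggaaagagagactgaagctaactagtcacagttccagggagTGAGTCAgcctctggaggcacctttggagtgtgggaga

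Pdcd1lg2 intron site chr19:29431136-29431285: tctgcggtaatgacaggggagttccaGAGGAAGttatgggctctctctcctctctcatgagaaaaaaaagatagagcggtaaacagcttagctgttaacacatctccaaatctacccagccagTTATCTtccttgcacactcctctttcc

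Jak2 far upstream site chr19:29228236-29228385: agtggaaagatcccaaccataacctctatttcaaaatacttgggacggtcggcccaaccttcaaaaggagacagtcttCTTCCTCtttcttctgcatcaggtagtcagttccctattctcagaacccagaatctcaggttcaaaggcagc

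Plgrkt intron CTCF site chr19:29354976-29355125: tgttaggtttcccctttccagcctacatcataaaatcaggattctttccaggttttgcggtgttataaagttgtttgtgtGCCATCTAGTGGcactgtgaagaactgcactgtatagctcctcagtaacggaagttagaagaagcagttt

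Il33 intron CTCF site chr19:29948276-29948425: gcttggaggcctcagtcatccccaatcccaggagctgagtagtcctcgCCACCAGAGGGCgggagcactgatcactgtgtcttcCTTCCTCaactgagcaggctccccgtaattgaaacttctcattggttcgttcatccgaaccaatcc

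The first site lies between genes, 10078 bp upstream of the start of Jak2, and has an AP-1 match at base 113 of the peak. It scored 131 in replicate 2, and the replicate 1 peak that overlaps it scored 150, the ceiling of the scale. The Pdcd1lg2 site has a PU.1 match at base 27 and a GATA match at base 124. It lies in an intron, 9151 bp from an internal transcript start of the gene and farther from the outermost one. It scored 150 in replicate 1 and 125 in replicate 2, at the same coordinates in both lists. The far upstream site of Jak2, 23518 bp from the gene start, has a PU.1 match at base 79 and scored 124 in replicate 2, with 149 in replicate 1. The CTCF sites scored 142 (Plgrkt intron) and 99 (Il33 intron) in replicate 1. The first was matched by a replicate 2 peak of 69, and the second had no overlapping replicate 2 peak. A match gives letters only and does not show that a factor was bound.

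Scores were spread over a wide range inside the stretch. In replicate 1 the lowest member scored 39, the 10th percentile was 61.9, the median 100.5 (95% interval 95 to 107, over peaks only), the 90th percentile 143.1 and the highest 150, which 6 members reached. The flanks had a median of 69 and no peak at 150. In replicate 2 the members ran from 14 to 131, with a 10th percentile of 20, a median of 42 (36 to 54) and a 90th percentile of 91, against a flank median of 31. The flanks differed between themselves: the 3 Mb before had medians of 55 and 20.5 and the 3 Mb after 74 and 32 in replicates 1 and 2. The stretch lay above either flank in both lists at each of the 5 percentiles read (10th, 25th, 50th, 75th and 90th).

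**Figure D1:**
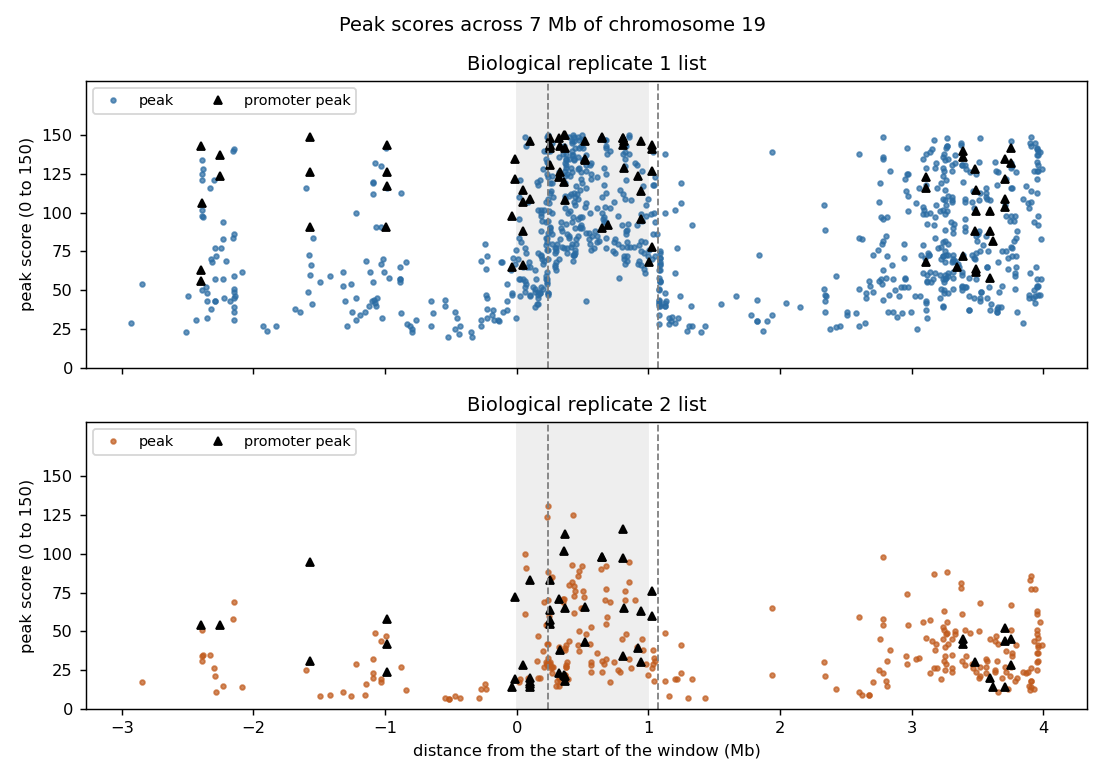
Score of each peak against its distance from the start of the stretch in Mb, for the replicate 1 list above and the replicate 2 list below. Circles are peaks, triangles peaks within 1000 bp of a protein-coding start, the grey band is the stretch and dashed lines are edges fitted to the 10th percentile of replicate 1. Between the dashed lines 2 of 284 replicate 1 peaks score under 60, while in replicate 2 low scores occur there too.

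Among 1616 windows of 1 Mb with at least 50 replicate 1 peaks, the stretch ranked 8th by its 10th percentile, 4th by its 25th, 6th by its median, 3rd by its 75th and 8th by its 90th, with 51st place by number of peaks. In replicate 2, with 736 such windows, it stood at place 56 by the 10th percentile (a value shared by 19 windows), 54 by the 25th and 53 by the median, but 8th by the 75th percentile and 10th by the 90th. Windows of 1 Mb with a higher median in both lists numbered 4: chromosome 12 from 112 to 113 Mb, with medians of 106 and 56, and chromosome 3 from 96 to 97 Mb (105 and 58), 97 to 98 Mb (103 and 45) and 89 to 90 Mb (102 and 45). These ranks restate the choice of the stretch and carry no test.

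How the difference from the flanks varied between weak and strong sites depended on the scale. In replicate 1 the score inside exceeded that of the flanks by 27.9 at the 10th percentile, 31.25 at the 25th, 31.5 at the median, 24 at the 75th and 12.1 at the 90th. The ratio was 1.82, 1.68, 1.46, 1.22 and 1.09 in the same order. In replicate 2 the excess was 8 at the 10th percentile, 8.25 at the 25th, 11 at the median, 24.75 at the 75th and 30.7 at the 90th, with ratios of 1.67, 1.42, 1.35, 1.54 and 1.51. In points of score the difference was thus smallest at the 90th percentile in replicate 1 and largest there in replicate 2, while the ratio was largest at the 10th percentile in both lists. On a scale that widens toward the ceiling of the score, −ln(1 − score/151), the difference rose from each percentile to the next in both lists, from 0.272 to 0.929 in replicate 1 and from 0.0593 to 0.413 in replicate 2.

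**Figure D2:**
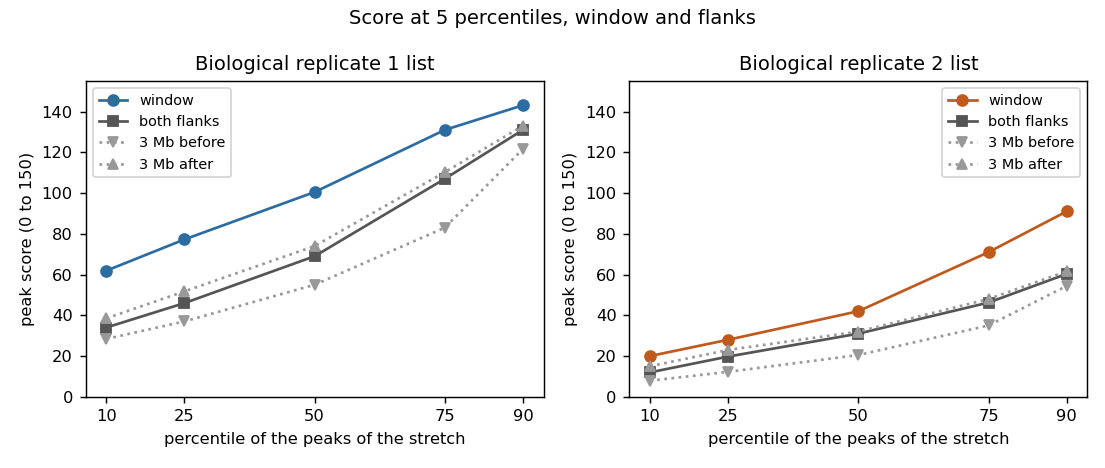
Peak score at the 10th, 25th, 50th, 75th and 90th percentile for the stretch, both flanks together and each flank alone, in the replicate 1 list (left) and the replicate 2 list (right). The gap between stretch and flanks narrows toward 150 in replicate 1, from 31.5 at the median to 12.1 at the 90th percentile, and widens in replicate 2, from 11 to 30.7.

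The stretch was also denser in peaks than its flanks. The stretch held 350 peaks per Mb against 100.2 in the flanks in replicate 1, a ratio of 3.49, and 141 against 34.7 in replicate 2, a ratio of 4.07. None of the bases in the compared 7 Mb are unknown in the reference, and GC content was 42.3% inside, 41.9% before and 41.0% after. Split at the 25th, 50th and 75th percentile of the whole replicate 1 list (scores of 50, 73 and 108), the stretch held 17 members in the lowest class, 50 in the next, 129 in the one after and 154 in the highest. Per Mb, the flanks held 29.8, 26, 20.3 and 24, so the stretch had fewer of the weakest peaks than its flanks and more of each other class. In replicate 2, split likewise at 20, 32 and 50, the 4 classes held 18, 38, 25 and 60 members against 9.5, 9.67, 8.67 and 6.83 per Mb in the flanks, so there even the weakest class was denser. Of the replicate 1 members, 81 of 350 (23.1%) lay above the 90th percentile of their list, where 9.64% of all peaks do, and 8.99% of flank peaks. Of the replicate 2 members it was 36 of 141 (25.5%), against 9.69% of the whole list and 6.25% of the flanks. Since scores chose the stretch, these shares describe it only.

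Hotspots, the broader regions of raised cutting, covered 15.4% of the stretch and 3.91% of the flanks in replicate 1, and 4.72% and 1.03% in replicate 2. Their −log10 q-values, which are capped at 100, did not stand out: 50.6% of the 249 hotspots inside were at the cap (44.4 to 56.8%) against 50.8% in the flanks in replicate 1, and 42.7% of 124 (34.4 to 51.5%) against 44.1% in replicate 2. Median widths were 282 bp against 269 bp and 256.5 bp against 260 bp. The widest hotspot, of 6917 bp, ran over the start of Jak2 (chr19:29248316-29255232) and held 11 peaks with scores of 91 to 148. The next, of 4861 bp, ran over the start of Cd274, and the third, of 3706 bp, over a coding exon of Pdcd1lg2.

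A left edge of the high scores was placed at nearly the same position by several fits in replicate 1. A fit of 2 steps to the median score along the 26 to 33 Mb region placed it at 29.236 Mb, as did least squares, and 100-kb bins gave 29.3 Mb. A fit to the 10th percentile, chosen after the data were seen, gave position 29235520, with a 10th percentile of 31 before and 74 behind it. This is 16.3 kb upstream of the start of Jak2 and 236 kb inside the window. The last 10 peaks before it scored 47 to 133 with a median of 59.5, and the first 10 behind it 70 to 150 with a median of 116. The fit placed the edge where these same scores step, so this is a description only, and the 21 peaks of the last 20 kb before it had a median of 79. Replicate 2, which the fit did not use, had medians of 36 and 48.5 over the 10 peaks on either side. The first 85 replicate 1 members, between the window start and this edge, had a 10th percentile of 47.4 and 32 scores under 60, so the low scores of the flank reach into the window up to that edge. At the window bounds the replicate 1 medians were closer: the 10 peaks on either side of the start had 69 and 75.5, and those on either side of the end 96.5 and 88.5. In replicate 2 they were 13 and 24 at the start, a larger ratio than at the fitted edge, and 39.5 and 32 at the end.

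The right edge depended on the fit. The median fit of replicate 1 placed it at 29.83 Mb and 100-kb bins at 29.7 Mb, both inside the window, and least squares at 30.051 Mb, past its end. The 10th-percentile fit put it at 30072990, inside Uhrf2 (chr19:30030513-30093722), the gene of a ubiquitin ligase that reads methylated DNA, where the 10th percentile was 74 before and 37 behind. Between both edges of that fit, which was made to the low scores, over 837.5 kb, 2 of 284 replicate 1 peaks (0.704%) scored under 60. From 26 Mb to the left edge it was 125 of 250 (50%), from the right edge to 33 Mb 151 of 417 (36.2%), and in the whole list 36.9%. The exceptions were peaks of 43 in an intron of Ric1 (chr19:29525636-29525785), all of whose bases are soft-masked as repeats in the reference, and of 58 in an intron of 9930021J03Rik (chr19:29777156-29777305), with 81.3% of bases masked.

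Replicate 2 did not resolve these edges. Its median fit returned 29.4 to 29.522 Mb, a stretch of 19 peaks with a median of 76, least squares 29.056 to 29.946 Mb, 100-kb bins 29.8 to 29.9 Mb, and its 10th-percentile fit 29.13 to 30.039 Mb, with a 10th percentile of 8 before, 22 inside and 15 after. Between the edges of the 10th-percentile fit of replicate 1, 9 of 123 replicate 2 peaks (7.32%) scored under 20, against 29 of 77 (37.7%) before, 27 of 149 (18.1%) after and 23.2% of the whole list. The low scores were thus scarcer between these edges in replicate 2 as well. The cutoffs, 60 in replicate 1 and 20 in replicate 2, hold unlike shares of their whole lists (36.9% and 23.2%). The margins of the lists are therefore not compared.

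**Figure D3:**
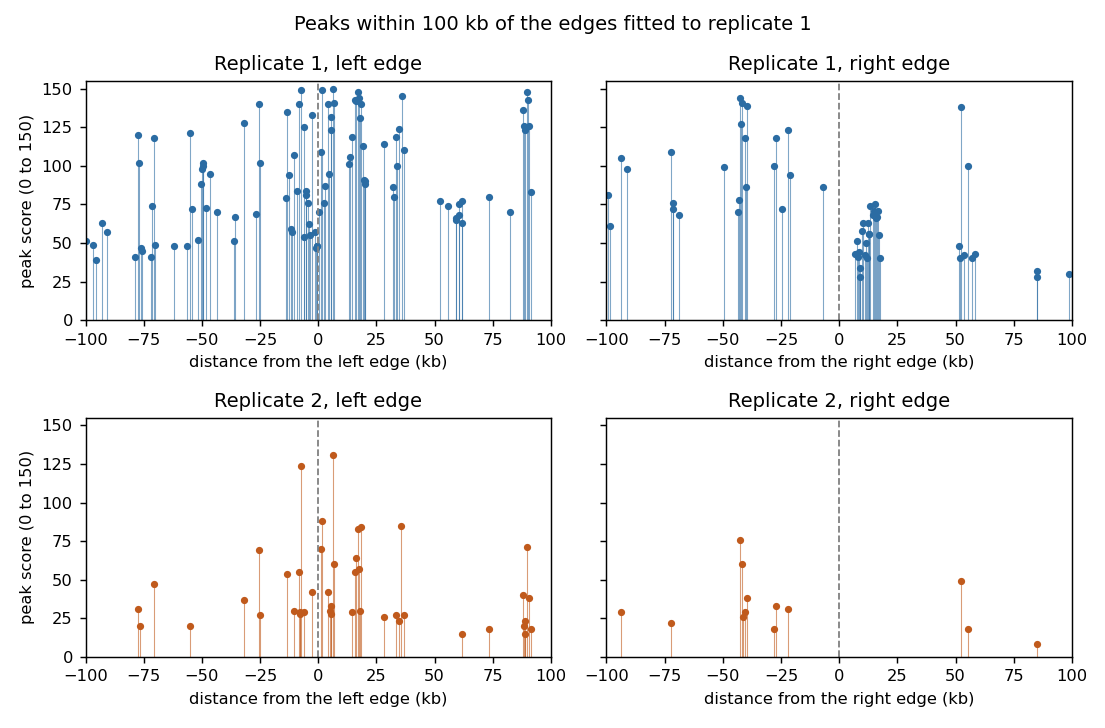
Peaks within 100 kb of the left and right edge fitted to the 10th percentile of replicate 1, with distance from the edge in kb on the x axis and score on the y axis, for replicate 1 (above) and replicate 2 (below). Left of the left edge replicate 1 scores of 39 to 60 mix with high ones, and none occur in the 100 kb to its right. Just beyond the right edge stands a dense group of 23 replicate 1 peaks of 28 to 75 with no replicate 2 peak.

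Just beyond the right edge of the 10th-percentile fit lay a dense block of weak sites. From 30079525 to 30090722, in the 3′ part of Uhrf2, 9 replicate 1 hotspots covered 10.8 of 11.2 kb and held 23 peaks with scores of 28 to 75 and a median of 56. No promoter, no replicate 2 peak and no replicate 2 hotspot lay there. Such dense weak blocks, with 20 or more peaks in 20 kb and none over 75, occurred at 108 places in the replicate 1 list. In the last 20 kb before the left edge, by contrast, 21 replicate 1 peaks scored 47 to 149 and 8 replicate 2 peaks stood beside them.

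Jak2 was covered by strong sites from its upstream region into its first introns. Its highest promoter peak scored 148 in replicate 1 (chr19:29252336-29252485) and 83 in replicate 2 (chr19:29252396-29252545), each at an annotated transcript start behind the outermost one. Those scores stood at the 90.2 and 79.2 percentile of all promoter scores of their lists. Its body held 25 replicate 1 peaks of 63 to 148 with a median of 90. Of the fixed list of JAK-STAT genes, 20 of 20 found had a promoter peak in each replicate, against 58% and 49.3% of all protein-coding genes. The medians of these JAK-STAT genes were 144 and 71.5, and Jak2 stood in place 5 by score in replicate 1 and place 6 in replicate 2. The list's Lnk is an older name of Sh2b3, which it also holds. Epor, the receptor that uses JAK2, scored 149 and 106, Stat5a, a target of the kinase, 139 and 53, and Socs3, an inhibitor of the pathway, 135 and 49. Jak2 thus had a higher score than Stat5a and Socs3 and a lower one than Epor in both lists, with 1 value per list and no error.

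Promoter peaks were present at most genes of the stretch. Of 14 protein-coding genes that start inside, 12 had one in replicate 1, where 58% of all protein-coding genes did, and 11 in replicate 2, where 49.3% did. In the 3 Mb before it was 6 of 11 genes in both lists, and in the 3 Mb after 8 of 15 and 6 of 15. The median promoter score inside was 147 in replicate 1 and 83 in replicate 2, against 139 and 63 over the promoters of the whole lists. Genes that share a peak, such as Plpp6 and 4430402I18Rik in the 3 Mb before, are not independent counts.

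**Figure D4:**
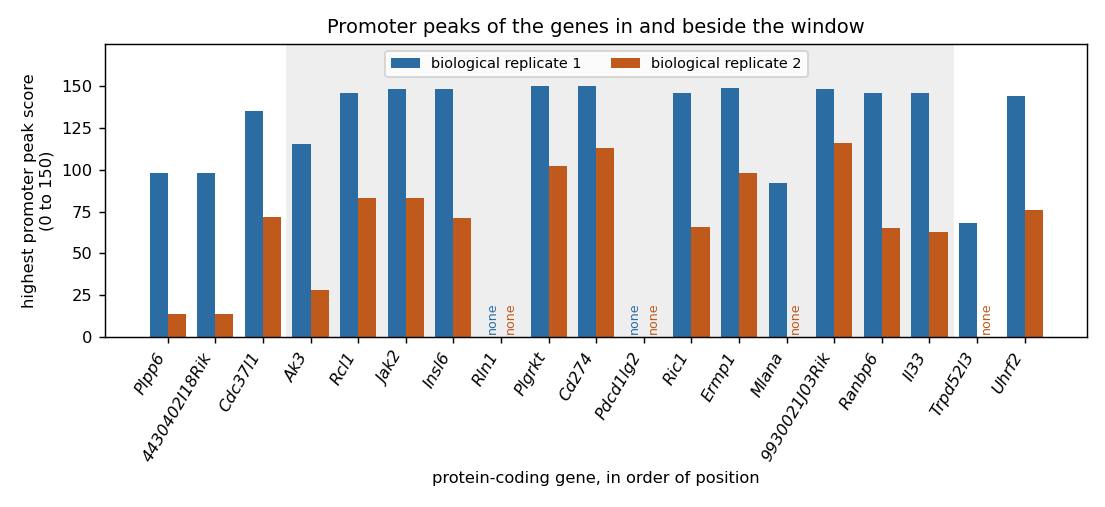
Highest score of a peak within 1000 bp of an annotated start for each protein-coding gene in and beside the stretch, in order of position, with 1 bar per list (no replicates within a list) and the grey band marking genes that start inside. Most genes inside reach 146 to 150 in replicate 1 and 63 to 116 in replicate 2, while Rln1 and Pdcd1lg2 have no promoter peak in either list.

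Left of the left edge promoter scores were mixed. Ak3, a mitochondrial adenylate kinase, scored 115 in replicate 1 and 28 in replicate 2, and Rcl1, which acts in ribosomal RNA processing, 146 and 83. Cdc37l1, a cochaperone gene that starts outside and reaches into the window, scored 135 and 72. Farther out, 1 peak serves both Plpp6 and 4430402I18Rik and scored 98 and 14.

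The immune checkpoint genes differed from each other. One of the strongest sites of the stretch lay beside the start of Cd274, with 150 in replicate 1 (chr19:29367276-29367425) and 113 in replicate 2 (chr19:29367296-29367445). The replicate 1 peak is centred 105 bp upstream of the start of Cd274, and that of replicate 2 85 bp upstream. Both centres fall inside the annotated bounds of Plgrkt, the gene of a plasminogen receptor. Plgrkt starts at 29367390 and runs in the opposite direction from Cd274, which starts at 29367455. The centres lie 40 and 20 bp from the start of Plgrkt, nearer than to that of Cd274. The site thus cannot be given to either gene alone. Plgrkt also has an internal start with a peak of 150 and 102. Pdcd1lg2 had no peak within 1000 bp of an annotated protein-coding start in either list. From its outermost start the nearest replicate 1 peak lay 1931 bp away, with a score of 112. The body of Pdcd1lg2 nevertheless held 40 replicate 1 peaks of 69 to 150, the most of any gene inside in that list. In replicate 2 it held 10 peaks, against 11 in Jak2. The Pdcd1lg2 intron site is among those whose sequence is shown above.

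The other promoters of the stretch were high with 2 exceptions. Insl6, an insulin-like peptide gene of the testis, scored 148 and 71, and its neighbour Rln1, the relaxin gene, had no promoter peak, with the nearest peak at 2140 bp. Ric1, a partner in a Golgi exchange factor, scored 146 and 66. Ermp1, an endoplasmic reticulum metallopeptidase gene, scored 149 and 98, with a further peak of 98 in replicate 2 inside its intron (chr19:29647636-29647785). Ranbp6, an importin-like gene, scored 146 and 65. The peak assigned to 9930021J03Rik, with 148 and 116, lay nearer to the start of the antisense gene AC120159.1, so it cannot be given to either. Il33 scored 146 and 63 at an internal start (chr19:29945976-29946125 in replicate 1). Mlana scored 92 in replicate 1, and the replicate 2 list had none within 1000 bp of its start. Right of the window, Trpd52l3 scored 68 in replicate 1 alone and Uhrf2, whose start is still inside the edges of the 10th-percentile fit, 144 and 76.

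Most members lay away from promoters. In replicate 1, 179 of 350 lay between protein-coding genes (51.1%, against 38.6% of flank peaks), 154 in introns and 17 in exons. Their median scores were 98, 105.5 and 110, and those of the flanks 66.5, 70 and 73.5 in the same order. In replicate 2 the medians were 47.5 between genes, 38.5 in introns and 69 in exons (n = 72, 60 and 9), against 29, 31 and 37 in the flanks (n = 88, 112 and 8). The differences were thus near each other across places in replicate 1 and unequal in replicate 2, where introns differed least and exons, with the fewest peaks, most. Promoter peaks had a median of 138.5 inside (n = 36) against 115 in the flanks (n = 45), and other peaks 96.5 (n = 314) against 67 (n = 556). In replicate 2 the medians were 56 (n = 30) against 43 (n = 22) at promoters and 41 (n = 111) against 29.5 (n = 186) elsewhere. Sites outside promoters with a GC content under 45% had a median of 95.5 inside and 60 in the flanks in replicate 1, and those of 45 to 55% had 96.5 and 70.

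The CTCF consensus gave a class of sites set without the score. It was present in 4 replicate 1 members, with scores of 142, 138, 139 and 99, none at a promoter. In the flanks 14 peaks held it, with scores of 31 to 122 and a median of 79, and over the whole list the median of such peaks was 94. In replicate 2 the 4 members with the consensus scored 84 (an intron of Jak2), 69, 59 and 70, against 11 to 45 in the 7 such flank peaks and a median of 26 over the whole list. The scores inside did not overlap those of the 7 flank peaks in replicate 2, while over the whole list such peaks reached 96, and in replicate 1 the Il33 site of 99 lay within the flank range. Of the replicate 2 sites, 3 held the consensus in both lists. They lay in an intron of Plgrkt, between genes at chr19:29684256-29684405, and between genes at chr19:29821076-29821225 (replicate 1 coordinates). The site in an intron of Jak2 (chr19:29253876-29254025) was overlapped by a replicate 1 peak of 140 (chr19:29253836-29253985) that does not hold the whole consensus. These 4 replicate 2 sites and the 3 replicate 1 sites that held the consensus in both lists stood at or above the 96.3 percentile of all CTCF-consensus peaks of their list. The Il33 site of replicate 1 stood at the 57.3 percentile of such peaks. The class is small, and its scores belong to the ones that chose the stretch.

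Motif content was close to that of the lists. The motifs searched on both strands within the 150 bp of a peak were CTCF, AGATAA for GATA factors, TGANTCA for AP-1, TGTGGT for RUNX, GAGGAAG for PU.1, CCNCACCC for KLF and AAGATGG for YY1, and matches of different motifs shared bases in 3 replicate 1 members and 0 replicate 2 members. GATA matches stood in 13.7% of replicate 1 members (10.5 to 17.7%), 15.8% of flank peaks and 12.9% of the whole list. AP-1 matches stood in 9.71% (7.04 to 13.3%), against 9.82% and 8.22%, RUNX in 15.1% against 13.3% and 15.5%, PU.1 in 16% against 18.5% and 18.2%, KLF in 4.57% against 4.83% and 6.497%, YY1 in 3.71% against 3.99% and 3.22%, and CTCF in 1.14% (0.445 to 2.9%) against 2.33% and 2.397%. In replicate 2 GATA matches stood in 16.3% of members (11.1 to 23.3%) against 15.6% of the list and AP-1 in 12.8% (8.23 to 19.3%) against 8.7%. In replicate 1 the 95% interval of the members' share held both the flank share and the list share for each of the 7 motifs. Within the GATA class outside promoters the median score was 97 inside (n = 45) and 85.5 in the flanks (n = 92) in replicate 1, and 43.5 (n = 20) against 32.5 (n = 40) in replicate 2. The remaining sites had 95 against 62 in replicate 1, a larger gap. In replicate 2 they had 39 against 29, a gap near that of the GATA class.

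Members were found again in the other list at a share somewhat above the general one in replicate 1 and near it in replicate 2. Over the whole replicate 1 list the share rose with score, from 2.47% at 1 to 60 to 97.3% at 136 to 150. The shares of all members are thus not a comparison at equal score. Of the replicate 1 members 128 of 350 (36.6%, 31.7 to 41.7%) overlapped a replicate 2 peak, as did 31.4% of flank peaks and 30.2% of all peaks of that list. Of the replicate 2 members 129 of 141 (91.5%, 85.7 to 95.1%) were overlapped, against 90.4% of flank peaks and 94.6% of all peaks.

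At equal replicate 1 score the share was lower among members than among other peaks. With scores of 81 to 100, 5 of 73 members (6.85%, 2.96 to 15.1%) were overlapped, against 21 of 66 in the flanks (31.8%, 21.8 to 43.8%) and 31.1% of the whole list. With scores of 121 to 135 it was 34 of 54 (63.0%, 49.6 to 74.6%) against 52 of 59 (88.1%, 77.5 to 94.1%) and 84.5%. In the top class, 136 to 150, it was 61 of 67 (91.0%) against 44 of 44 and 97.3%. Read the other way, members with a replicate 2 score of at most 20 had a median replicate 1 score of 105 (n = 14), against 78.5 in the flanks (n = 44) and 88 in the whole list. For replicate 2 scores of 41 to 60 the values were 138, 135 and 134. A replicate 1 score of a given size in the stretch thus went with a lower share of replicate 2 peaks than the same score elsewhere. Low shares also stood in the 4 windows of higher median, where those with scores of 81 to 100 came to 3.57% (3 of 84), 4.72% (5 of 106), 12.9% (8 of 62) and 8.96% (6 of 67). Intervals cover counting over peaks only, and the comparison uses the scores that chose the stretch, so no test was made.

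**Figure D5:**
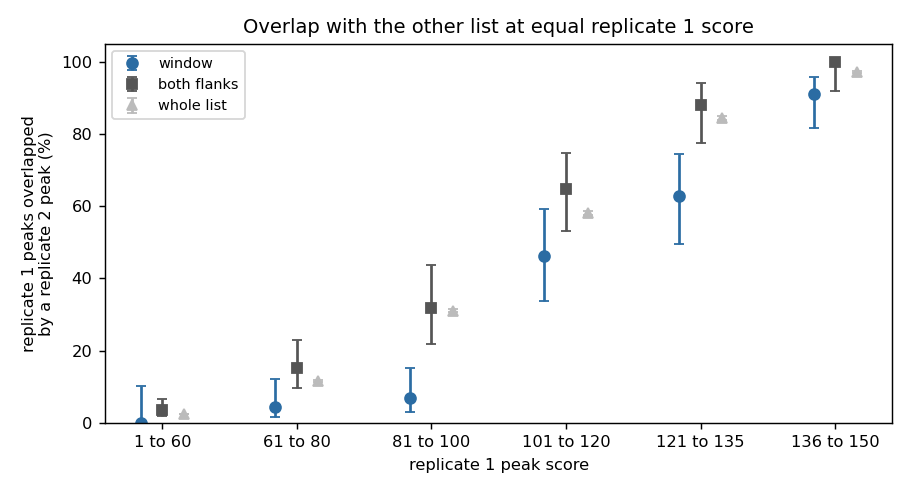
Share of replicate 1 peaks overlapped by a replicate 2 peak, in percent, by class of replicate 1 score, for the stretch, the flanks and the whole list, with Wilson 95% intervals. Members lie below the whole list in each class, by the widest margin from 81 to 100, at 6.85% against 31.1%.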

How the data were processed

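DNase-seq was made on 3 libraries of 1 cell line, 2 of biological replicate 1 and 1 of biological replicate 2. The authors deposited 1 list of peaks and 1 of hotspots for each biological replicate. Per the deposited notes, the replicate 1 lists came from an alignment merged from both libraries. Peaks carry a score that the authors deposited as a whole number of at most 150, and hotspots a −log10 q-value deposited with a cap at 100. The build was mm10, per the labels. No aligner, caller or read number is named (not given in the sources used here). Depth is therefore unknown and the precision of a score cannot be stated.

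Exact repeats were dropped (67 and 7 lines). Positions were compared with GRCm38 and GENCODE M21 basic, with Python 3.11.15 and its packages pandas 2.3.3, numpy 2.4.6, matplotlib 3.10.9 and scipy 1.17.1. A promoter peak was centred within 1000 bp of a protein-coding start, and an overlap needed 1 bp. Edges came from fits of 2 steps with at least 10 peaks per segment. The fits, overlap and motif code were tested on simulated data. The reference was checked against the RefSeq promoter table and was identical at 1044 of 1044 promoters of chromosome 19. Since each biological replicate has 1 list, samples could not be tested against each other. Wilson and order-statistic intervals cover counting over peaks only. The number of per-sample columns left out was 0.

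Genes named are those that overlap the window, the nearest starts outside it, the genes nearest the 10 highest peaks of each list, and the JAK-STAT list, of which Epor, Stat5a and Socs3 were picked for display by role. The members and lists were chosen with earlier results of these data known. The Jak2 promoter peak overlaps an untranslated exon, so its sequence is not shown. Alternatives tried were each flank alone, repeats kept, the higher-scoring 50%, shared or non-promoter peaks only, other fits, other promoter widths, stricter overlap, equal list length and each replicate alone.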

Additional observations from a re-analysis of the deposited data

How the results depend on the processing

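Of 66 alternative values, 41 stayed within the limit used for that value, 25 moved and 0 changed sign. The limit was a spread, an interval or, where neither was at hand, a factor of 1.5, so the labels are not alike across values. The replicate 1 median difference of 31.5 became 45.5 against the 3 Mb before alone, 14 among peaks overlapped by replicate 2 and 2 in the higher-scoring 50% of the list. That of replicate 2, 11, became 21.5 against the 3 Mb before alone and rose to 18 in the higher-scoring 50%. The density ratio of 3.49 became 6.22 in that 50%. With the replicate 1 list limited to the length of the other, the shared part of its members was 66.8% (n = 184) in place of 36.6%, and with an overlap of at least 50% of the peak that of replicate 2 was 84.4% in place of 91.5%. The left edge of 29.236 Mb in replicate 1 came to between 29.184 and 29.3 Mb under the other fits. Its limit was the spread between the 2 lists, 0.116 Mb, which rests on the replicate 2 edge given below. The right edge of replicate 1, 29.83 Mb by the median, came to 29.7 Mb in 100-kb bins, 30.051 Mb by least squares and 30.059 Mb without promoter peaks. It was 30.073 Mb in the fits to the 10th and 20th percentile and to the 10th without promoter peaks. These percentile fits were, for both edges, chosen after the data were seen. In replicate 2 the edges of 29.4 and 29.522 Mb became 29.056 and 29.946 by least squares, 29.8 and 29.9 in 100-kb bins, 29.13 and 30.039 by the 10th percentile, and 28.895 and 32.934 by the 10th percentile without promoter peaks, so they are not determined. The cause was not tested. In percentiles of each own list, the median difference of 20.6 was 17.4 and 23.8 with either replicate left out. No paired analysis was possible because there is 1 group and no test.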
